A study of Saccharomyces cerevisiae with 16 samples.

Results

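The genes that encode Mediator and the general transcription factors TFIIA, TFIIB, TFIIE, TFIIF and TFIIH were followed in budding yeast (Saccharomyces cerevisiae) in which a subunit of TFIID was drawn out of the nucleus. The genes were chosen by name, as the subunits of these complexes, and not by their signal. They number 25 of Mediator and 17 of the general factors, 42 in all, and were set among the 5449 S. cerevisiae genes with a probe set on the Affymetrix array. Of the 42, 41 had a single probe set each, and SRB4, of the Mediator head, was not analysed here. Testing left out the dimmest 20% of genes, which removed NUT2 of the Mediator middle and SRB8, SSN2 and SSN8 of its kinase module, so that 37 of the 42 stood among 4359 genes tested. Of the 37, SRB5, PGD1 and SSN3 passed that filter only through their steady-state signal with DMSO: the mean over their other groups was 6.55, 6.41 and 6.66 on the log2 scale, where the filter stood at 6.70. Comparisons with that group had to show them as lower. The members lie on 13 chromosomes, and no pair of members are neighbouring genes in the RefSeq annotation of assembly R64.

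The series asks how widely transcription depends on TFIID. Cultures had rapamycin for 30 min or its solvent DMSO, 4-thiouracil was then added at 5 mM for 6 min, and wild-type Schizosaccharomyces pombe cells, labelled apart and with no mention of the drug, were mixed in as a spike-in. Steady-state RNA is the total RNA, and newly synthesized RNA is the thiolated part of it recovered on streptavidin beads. The groups used here are labelled Taf4 anchor away: newly synthesized RNA with rapamycin, newly synthesized RNA with DMSO, steady-state RNA with rapamycin and steady-state RNA with DMSO, with 2 samples in each. Every group derives from W303 and has the same genotype label: mating type MATalpha, the tolerance alleles tor1-1 and fpr1::NAT, the anchor RPL13A-2xFKB12::TRP1 and the tagged TAF4-FRB::HYGRO. The samples titled Taf5 carry that label too. The treatment protocol gives rapamycin at 1 µg/mL, and the design text gives 5 µM. Rapamycin joins the FRB tag on Taf4 to the FKBP12 tag on a ribosomal protein that leaves the nucleus, and tor1-1 and loss of FPR1 make the cells tolerate the drug. Among the samples used here no strain without the FRB tag had rapamycin, so effects of the drug and of depletion cannot be told apart. Whether the 2 samples of a group were grown apart is not stated, so every p-value rests on a spread that may be technical.

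The table holds 16 columns but 10 distinct arrays: 6 columns titled Taf5 equal a column titled Taf4 divided by 5, to within 0.001 signal units. In each such pair the fraction labels differ as well as the strain labels, so which fraction a scan holds rests on the Taf4 titles. No scan recurs among the 8 Taf4-labelled arrays, and the results use those alone. Values are log2 signals after each array was shifted to give all arrays the same S. pombe median; a change is a difference of such values, rapamycin minus DMSO. In these bulk cultures, fewer S. cerevisiae cells per S. pombe cell and less RNA per cell cannot be told apart. Of the S. pombe names tested, 0 of 1391 passed in the newly synthesized comparison by limma at an adjusted p under 0.05 (44 at an unadjusted p under 0.05). In the steady-state comparison 306 were lower and 448 higher. TAF4, the gene that carries the FRB tag, had 5.40 and 5.82 in newly synthesized RNA with rapamycin, against 6.99 and 6.92 with DMSO, which says nothing of the nuclear protein. Genes of the alpha mating type lay between 8.50 (STE3) and 13.63 (MF(ALPHA)1), and none of 6 genes of the other mating type passed the filter on dim signal.

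Transcription by RNA polymerase II starts from a complex built on the promoter. TFIID brings the TATA-binding protein, TFIIA steadies that protein on DNA, TFIIB bridges it to the polymerase, TFIIF enters with the polymerase, and TFIIE recruits TFIIH, whose core opens the DNA and whose kinase phosphorylates the tail of the polymerase. Mediator links activators to this complex: its tail contacts activators, its head and middle contact the polymerase, and a separable kinase module restrains that contact. Many of these subunits are essential in yeast, and the same factors serve most genes of the cell, their own included.

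In newly synthesized RNA nearly every gene of the group was lower with rapamycin. Of 37 members tested, 34 fell and 0 rose by limma at an adjusted p under 0.05, where 79.4% of all 4359 genes fell and 1.79% rose. A fall was thus the common outcome among all genes tested. The members' median was -0.89 on the log2 scale, against -0.78 over all genes tested, and 26 of 37 lay below the median of all genes. Changes ranged from -1.41 (TFB1) to -0.35 (TOA2). All 37 had both rapamycin arrays below both DMSO arrays, as had 92.9% of all genes tested. These falls are relative to the spike-in: with the S. cerevisiae medians of the arrays made equal instead, the members' median was -0.06, against 0.05 over all genes.

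**Figure D1:**
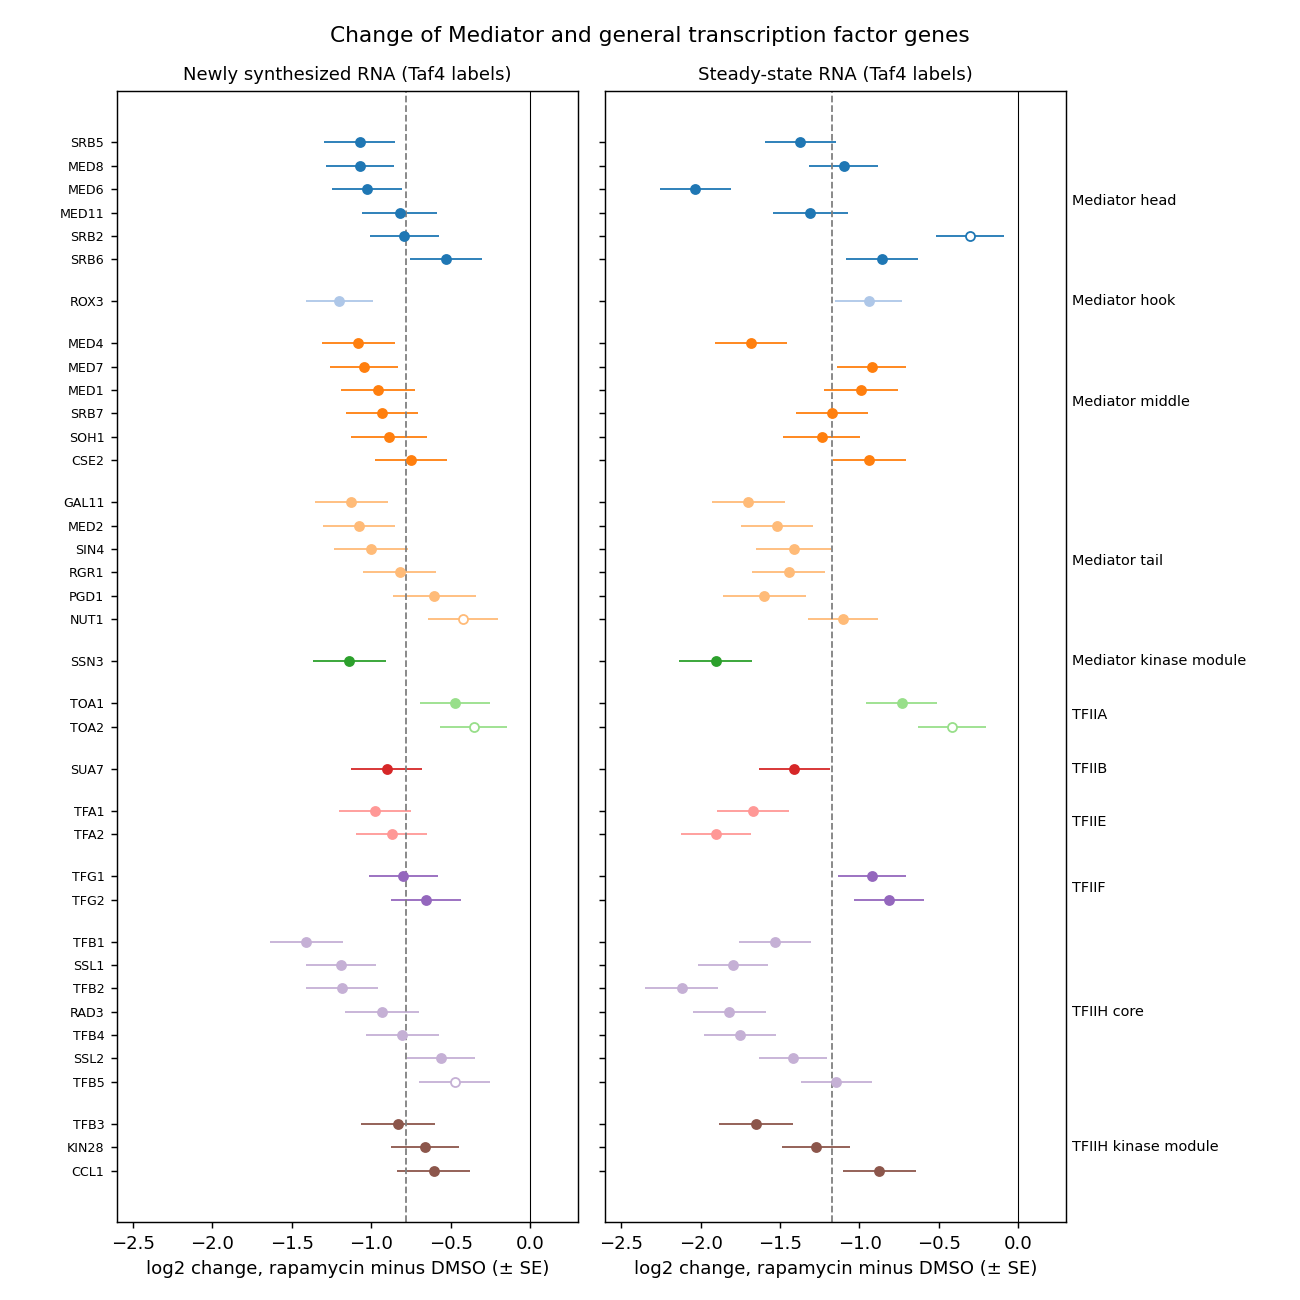
Log2 change (rapamycin minus DMSO, ± SE from limma, n = 2 arrays per group) of the 37 tested members, ordered by role, in newly synthesized RNA (left) and steady-state RNA (right). Filled circles passed at an adjusted p under 0.05 and open circles did not; the dashed line is the median of all 4359 genes, at -0.78 on the left and -1.17 on the right. The TFIIA genes lie nearest to 0 among the general factors in both panels.

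Genes of the TFIIH core, which opens promoter DNA and also serves nucleotide excision repair, included the largest falls. TFB1 (YDR311W, chromosome IV, 1085065 to 1086993 in assembly R64), a structural subunit, had log2 signals of 6.88 and 6.69 with rapamycin, against 8.11 and 8.27 with DMSO. The groups do not overlap, and the change was -1.41 (SE 0.23, 2.65-fold lower, adjusted p = 7.1e-06). SSL1, which encodes another structural subunit, stood at 7.49 and 7.45 with rapamycin, against 8.56 and 8.75 with DMSO (2.28-fold lower, adjusted p = 3.34e-05). For TFB2, whose product holds the translocase Ssl2 in the core, the signals were 6.60 and 6.70 with rapamycin, against 7.77 and 7.90 with DMSO (2.27-fold lower, adjusted p = 5.69e-05). These 3 genes fell together, while 2 others of the same core stood near the upper end of the members. SSL2, the translocase gene itself, fell 1.47-fold (adjusted p = 0.0178), and TFB5, which encodes the smallest core subunit, had a change of -0.47 (SE 0.23) that missed the threshold (adjusted p = 0.0513). The helicase gene RAD3 and the structural gene TFB4 lay between these, and 6 of the 7 core genes fell, where 79.4% of all genes tested did. Leaving out any of the 4 newly synthesized arrays cost SSL2 its call (adjusted p = 0.0528 to 0.152), and TFB4 did not pass without newly synthesized replicate 2 with DMSO (adjusted p = 0.0542).

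The kinase module of TFIIH, made of the kinase Kin28, its cyclin Ccl1 and the assembly factor Tfb3, fell as well. All 3 genes passed, where 79.4% of all genes tested fell, with changes between -0.83 and -0.61 and a median of -0.66. CCL1 had 7.08 and 7.18 with rapamycin, against 7.60 and 7.87 with DMSO, a 1.52-fold lower level (adjusted p = 0.0177). Its arrays did not overlap between the groups, yet its call was lost without newly synthesized replicate 2 with DMSO or replicate 1 with rapamycin (adjusted p = 0.155 and 0.0944), and KIN28 lost its call without the first of these (adjusted p = 0.082).

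Among the factors that meet the promoter earlier, TFIIA had the smallest changes. TOA2, which encodes the small subunit, had 9.71 and 9.61 with rapamycin, against 9.97 and 10.06 with DMSO. The arrays with rapamycin were the lower ones, but the change of -0.35 (SE 0.21) did not pass (adjusted p = 0.118). TOA1, of the large subunit, fell 1.39-fold (adjusted p = 0.0474), with 9.04 and 8.90 with rapamycin, against 9.43 and 9.46 with DMSO; leaving out any of these 4 arrays cost it the call (adjusted p = 0.101 to 0.216). SUA7 (YPR086W, chromosome XVI, 710101 to 711138) encodes TFIIB, a single protein. It had 8.52 and 8.64 with rapamycin, against 9.44 and 9.53 with DMSO, a 1.87-fold fall (SE 0.22 on the log2 scale, adjusted p = 7.41e-04). TFA1, the large subunit of TFIIE, fell 1.97-fold (adjusted p = 3.87e-04), and its partner TFA2 also passed. Of TFIIF, TFG1 fell 1.74-fold (adjusted p = 0.00155) and TFG2 passed as well, but TFG2 lost its call without newly synthesized replicate 2 of either treatment (adjusted p = 0.111 for rapamycin and 0.106 for DMSO).

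Of 20 Mediator genes tested, 19 fell, with a median of -0.98, and 16 of them lay below the median of all genes. The 17 genes of the general factors, of which 15 fell, had a median of -0.80. Of all genes tested 79.4% fell, with a median of -0.78. The lowest Mediator value was that of ROX3, a subunit beside the head and middle, which had 8.43 and 8.45 with rapamycin, against 9.61 and 9.67 with DMSO. The groups do not overlap, and the level was 2.30-fold lower (SE 0.21 on the log2 scale, adjusted p = 2.06e-05). SSN3, the cyclin-dependent kinase of the kinase module, had 6.02 and 5.51 with rapamycin, against 6.83 and 6.98 with DMSO (2.20-fold lower, adjusted p = 9.49e-05). The tail gene GAL11, whose product is the main target of several activators, fell 2.18-fold (adjusted p = 9.89e-05).

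All 6 head genes tested fell (MED6, MED8, MED11, SRB2, SRB5 and SRB6), between -1.07 and -0.53, where 79.4% of all genes tested fell. So did the 6 middle genes (MED1, MED4, MED7, CSE2, SRB7 and SOH1), within the narrower range from -1.08 to -0.75. SRB7, an essential middle subunit, fell 1.91-fold (adjusted p = 5.9e-04), and SRB6 of the head 1.45-fold (adjusted p = 0.0318). Of the 6 tail and scaffold genes (MED2, PGD1, NUT1, RGR1, GAL11 and SIN4) 5 fell. RGR1, which encodes the scaffold that joins the modules, fell 1.77-fold (adjusted p = 0.00204), while NUT1 had 7.83 and 7.80 with rapamycin, against 8.27 and 8.20 with DMSO, a change of -0.42 (SE 0.22) that missed the threshold (adjusted p = 0.0768). SRB6 did not pass without either newly synthesized array with rapamycin (adjusted p = 0.135 and 0.0863) or without replicate 2 with DMSO (adjusted p = 0.22). MED11, PGD1 and SOH1 did not pass without newly synthesized replicate 2 with DMSO (adjusted p = 0.0611, 0.123 and 0.0713), nor did CSE2 and PGD1 without replicate 2 with rapamycin (adjusted p = 0.0781 and 0.125) or CSE2 without replicate 1 with DMSO (adjusted p = 0.0517). In all, 23 of the 34 calls held in each of the 8 fits that left out 1 array.

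**Figure D2:**
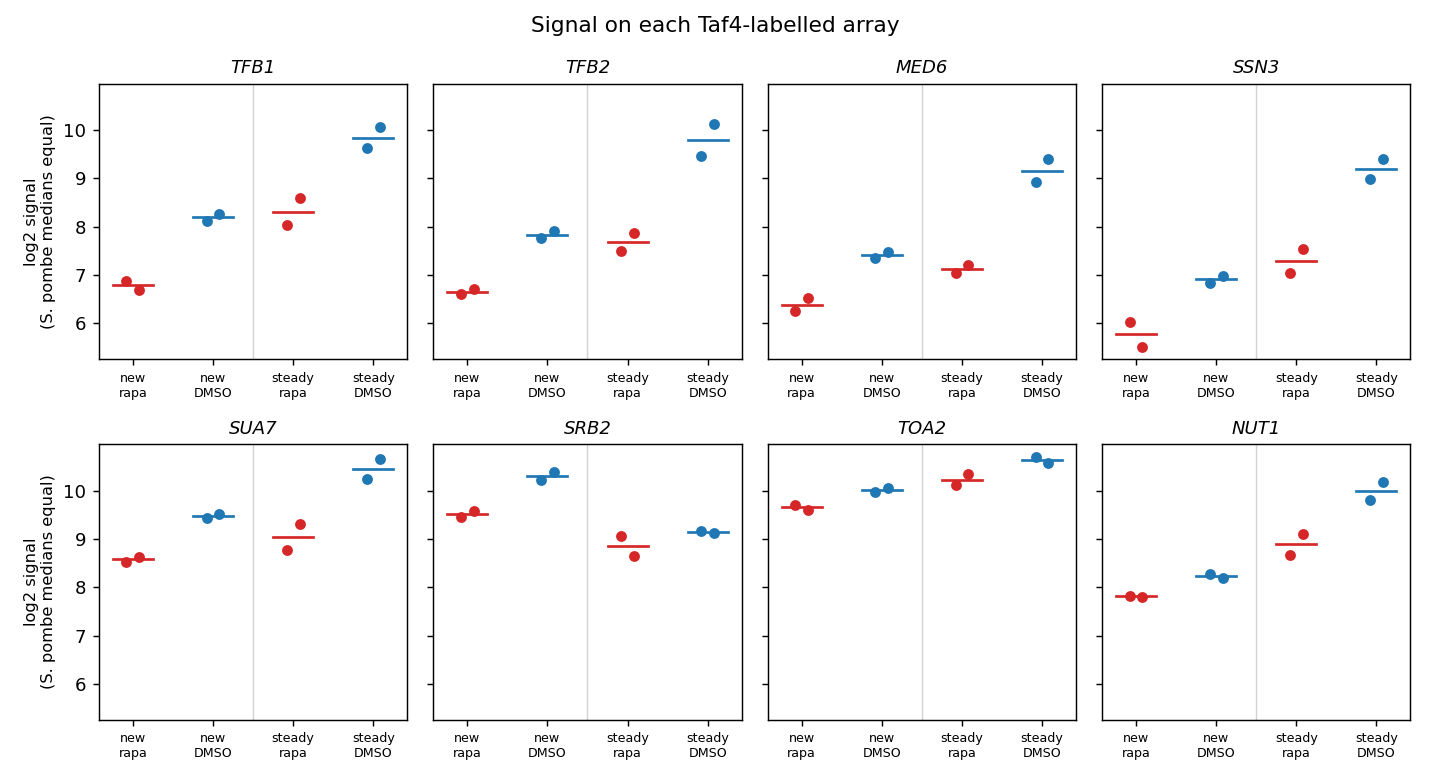
Log2 signal, with S. pombe medians made equal, of 8 members on each Taf4-labelled array; red is rapamycin, blue is DMSO, points are arrays (n = 2 per group) and bars their means. TFB1, TFB2, MED6, SSN3 and SUA7 are lower with rapamycin in both fractions, the groups of TOA2 lie close together, and SRB2 is the gene with higher signals in newly synthesized than in steady-state RNA with DMSO (10.31 against 9.16 on average).

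In steady-state RNA nearly every member was lower with rapamycin too, with a lower median and a wider range. Of 37 members, 35 fell and 0 rose, where 86.8% of all genes fell and 1.42% rose. The members' median was -1.37, against -1.17 over all genes, and 22 of 37 lay below that of all genes. All 37 again had both rapamycin arrays below both DMSO arrays, as had 91.5% of all genes tested. Without SRB5, PGD1 and SSN3, 32 of 34 fell. Values ran from -2.12 (TFB2) to -0.30 (SRB2). In this comparison the S. pombe signals also moved apart, and the SD of their changes was 0.70, against 0.16 in newly synthesized RNA; the part this plays in the members' changes was not tested.

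TFIIH core genes were again low. TFB2 (YPL122C, chromosome XVI, 319226 to 320767) had 7.49 and 7.86 with rapamycin, against 9.46 and 10.13 with DMSO, which is 4.35-fold lower (SE 0.23 on the log2 scale, adjusted p = 1.32e-09). The DNA helicase gene RAD3 fell 3.53-fold (adjusted p = 1.7e-08), SSL1 3.48-fold (adjusted p = 9.25e-09) and TFB5 2.21-fold (adjusted p = 1.94e-05). All 7 core genes passed, where 86.8% of all genes tested fell. Of the 7, 6 lay below the median of all genes, around a core median of -1.75. Both TFIIE genes were low as well. TFA2, of its small subunit, had 7.28 and 7.88 with rapamycin, against 9.57 and 9.39 with DMSO (3.74-fold lower, adjusted p = 4.95e-09), and TFA1 fell 3.18-fold (adjusted p = 5.43e-08). SUA7 fell 2.66-fold, with 8.78 and 9.31 with rapamycin, against 10.25 and 10.66 with DMSO (adjusted p = 7.83e-07).

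At the other end, both TFIIF genes fell but lay above the median of all genes, TFG1 1.89-fold (adjusted p = 1.95e-04) and TFG2 1.76-fold (adjusted p = 8.76e-04). TOA1 fell 1.66-fold (adjusted p = 0.00254). TOA2 had 10.12 and 10.35 with rapamycin, against 10.71 and 10.59 with DMSO, and its change of -0.42 (SE 0.21) did not pass (adjusted p = 0.0649). The cyclin gene CCL1 of the TFIIH kinase fell 1.83-fold (adjusted p = 7.78e-04), and KIN28 and TFB3 also passed. Without steady-state replicate 1 with rapamycin, TOA1 and CCL1 did not pass (adjusted p = 0.0508 and 0.0544), and without replicate 2 with rapamycin TOA2 did (adjusted p = 0.0302).

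Mediator genes were spread most widely in the head. MED6 (YHR058C, chromosome VIII, 218997 to 219884), a conserved head subunit, had 7.04 and 7.21 with rapamycin, against 8.92 and 9.40 with DMSO, a 4.09-fold fall (SE 0.22 on the log2 scale, adjusted p = 1.48e-09). SRB2, also of the head, had 9.06 and 8.65 with rapamycin, against 9.18 and 9.14 with DMSO. Its arrays do not overlap, but the change of -0.30 (SE 0.22) did not pass (adjusted p = 0.182; 0.0402 without steady-state replicate 1 with rapamycin). SRB2 was the only Mediator gene tested that did not pass here, where 86.8% of all genes tested fell. SSN3 was 3.75-fold lower, with 7.05 and 7.54 with rapamycin, against 8.99 and 9.40 with DMSO (adjusted p = 8.5e-09 by limma). It passed the filter only through steady-state RNA with DMSO, so this comparison had to show it as lower. The tail and scaffold genes kept together, all 6 between -1.70 and -1.11, with RGR1 2.72-fold lower (adjusted p = 7.67e-07). PGD1, among these 6, has the same limit as SSN3. Middle genes had a median of -1.08, with SRB7 2.26-fold lower (adjusted p = 1.47e-05), and ROX3 fell 1.92-fold (adjusted p = 1.2e-04). SRB6 fell 1.81-fold (adjusted p = 7.42e-04).

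The 4 dim Mediator genes were described without the filter, where 5449 genes were tested. NUT2, an essential middle subunit gene, had 4.66 and 3.89 with rapamycin, against 5.33 and 5.86 with DMSO in newly synthesized RNA, and 6.19 and 5.74 with rapamycin, against 7.29 and 8.28 with DMSO in steady-state RNA. It fell in both (adjusted p = 0.00916 and 7.7e-04). SSN8, the cyclin of the kinase module, had 2.32 and 4.97 with rapamycin, against 4.90 and 5.52 with DMSO in newly synthesized RNA. Replicate 1 with rapamycin stands far below the rest while replicate 2 lies between the DMSO arrays (adjusted p = 0.0488), so no fold is given. Its signals in steady-state RNA were 4.98 and 5.73 with rapamycin, against 6.34 and 6.96 with DMSO, without overlap, and did not pass (adjusted p = 0.0824). SRB8 overlapped between the groups in newly synthesized RNA (adjusted p = 0.194), and SSN2, with a change of -0.41, did not pass (adjusted p = 0.114). In steady-state RNA SRB8 and SSN2 fell, by 0.95 and 0.92 on the log2 scale (adjusted p = 0.0116 and 0.00263).

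A test of the difference asks whether a gene fell by the same amount in both fractions. With the steady-state change subtracted from the newly synthesized one, 0 members passed with a negative value and 0 with a positive one by limma, where 0.138% and 1.19% of all genes did; 13 members, and 1122 of the 4359 genes, had an unadjusted p under 0.05. The members' median difference was 0.49, against 0.39 over all genes. TFA2 (1.03, SE 0.32, adjusted p = 0.0705), MED6 (1.01, SE 0.31, adjusted p = 0.0708), PGD1 of the tail, which passed the filter only through steady-state RNA with DMSO (1.00, SE 0.37, adjusted p = 0.111) and TFB4 (0.95, SE 0.32, adjusted p = 0.0934) had the most positive values. SRB2 (-0.49, adjusted p = 0.301), ROX3 (-0.26, adjusted p = 0.581) and MED7 (-0.12, adjusted p = 0.82) were the members below 0, and MED8 was at 0.03 (adjusted p = 0.956). The count rests on single arrays: without steady-state replicate 1 with DMSO 8 members were called, all in the positive direction, beside 759 of all 4359 genes, and without steady-state replicate 2 with rapamycin 12 were, beside 1097 of all genes. Across the 37 members, which share arrays and depend on 1 spike-in, the 2 changes correlated at Pearson's r = 0.523, and across all 4359 genes at 0.747.

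**Figure D3:**
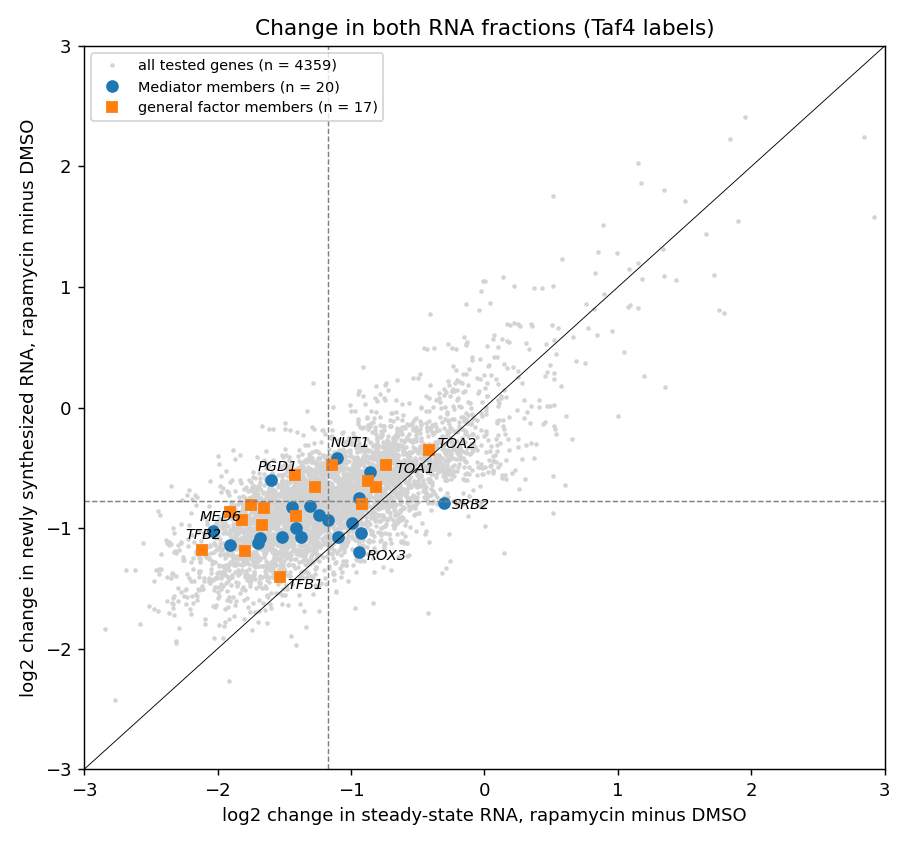
Log2 change in newly synthesized RNA (vertical) against that in steady-state RNA (horizontal) for 20 Mediator genes, 17 general factor genes and all 4359 genes tested (grey); dashed lines are the medians of all genes and the solid line marks equal change. All members lie below 0 on both axes, and SRB2, ROX3 and MED7 are among the members below the line of equal change.

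Without rapamycin, newly synthesized RNA was set against steady-state RNA on the same S. pombe scale, which compares the fractions as the labels give them. The S. pombe cells were labelled too, so each value is relative to the S. pombe RNA of the same array. Lower and higher here are not amounts of RNA. 36 of 37 members were lower in newly synthesized RNA and 1 was higher by limma, where 83.1% of all genes were lower and 2.57% higher. The members' median was -1.52, against -1.27 over all genes. SRB2 was the exception, with 10.22 and 10.40 in newly synthesized RNA, against 9.18 and 9.14 in steady-state RNA (2.23-fold higher, SE 0.22 on the log2 scale, adjusted p = 9.2e-06). The most negative values were those of SSN3 (-2.29, adjusted p = 2.95e-10), TFA1 (-2.28, adjusted p = 2.56e-10), SOH1 (-2.22, adjusted p = 8.3e-10) and PGD1 (-2.16, adjusted p = 4.28e-09), of which SSN3 and PGD1 passed the filter only through steady-state RNA with DMSO. Without these and SRB5, 33 of 34 members were lower and 1 higher. All 6 tail and scaffold genes lay in a narrow band from -2.16 to -1.76. ROX3 (-0.56, adjusted p = 0.0152), TOA2 (-0.63, adjusted p = 0.00644) and MED8 (-0.71, adjusted p = 0.00269) were lower by the least. ROX3 did not pass without newly synthesized replicate 1 or 2 or steady-state replicate 2 (adjusted p = 0.101, 0.0651 and 0.0675), nor TOA2 without newly synthesized replicate 1 (adjusted p = 0.0659). In the S. pombe RNA of these arrays 362 of 1391 names were lower and 581 higher in newly synthesized RNA, and the part this plays in the members' values was not tested.

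Relative to the median S. cerevisiae gene, few members differed in newly synthesized RNA and more of them in steady-state RNA. Among all genes, too, more differed in steady-state RNA. With the S. cerevisiae medians of the arrays made equal in place of the S. pombe medians, 2 members were lower and 2 higher in newly synthesized RNA with rapamycin, where 8.92% and 15.6% of all genes were. By limma the lower ones were TFB1 (-0.58, adjusted p = 0.0076) and SSL1 (-0.37, adjusted p = 0.0302). The higher ones were TOA2 (0.47, adjusted p = 0.0452) and NUT1 (0.41, adjusted p = 0.0302). Fits that leave out 1 array were not run on this scale. In steady-state RNA 10 were lower and 7 higher, where 18.1% and 32% of all genes were. The 10 were TFB2 (-0.85), TFB4, SSL1 and RAD3 of the TFIIH core, TFA1 and TFA2 of TFIIE, and MED6 (-0.76), MED4, GAL11 and SSN3 of Mediator. On the S. pombe scale SSN3 passed the filter only through steady-state RNA with DMSO, and this was not checked on the present scale. Higher were SRB2 (0.96), TOA2 (0.85), TOA1, TFG1, TFG2, SRB6 and CCL1, the last near the threshold (adjusted p = 0.0411 by limma). On this scale both TFIIA and both TFIIF genes were thus called higher in steady-state RNA with rapamycin, and both TFIIE genes and 4 of 7 TFIIH core genes lower. Without rapamycin 13 members were lower and 8 higher in newly synthesized than in steady-state RNA on this scale, beside 22.7% and 37.6% of all genes. SSN3 and PGD1, which share that limit of the filter, are among the 13. The difference between the depletion changes was called lower for 0 members and higher for 0 on it, beside 1.4% and 0.436% of all genes.

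Other parts of the initiation machinery were counted in the same way. TAF4, among the TFIID genes, passed the filter on dim signal only through steady-state RNA with DMSO. It had 8.46 and 8.42 there and from 5.40 to 7.08 on its other arrays, where the filter stood at 6.70. Comparisons with that group had to show TAF4 as lower, and the other genes of these lists were not checked for this. In newly synthesized RNA 13 of 14 TFIID genes, 14 of 14 SAGA genes, 9 of 12 genes of RNA polymerase II subunits and 1 of 4 genes of the TATA-binding protein and its regulators fell, and 0 rose, beside 79.4% and 1.79% of all genes. Their medians were -0.75, -0.87, -0.56 and -0.32, against -0.89 for the members. In steady-state RNA 13 of 14, 14 of 14, 12 of 12 and 3 of 4 fell and 0 rose, beside 86.8% and 1.42% of all genes. Their medians there were -1.27, -1.38, -0.80 and -0.75, against -1.37 for the members. Polymerase subunit genes lay mostly above the median of all genes, with 1 and 2 of 12 below it in the 2 fractions, where 26 and 22 of 37 members were below.

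**Figure D4:**
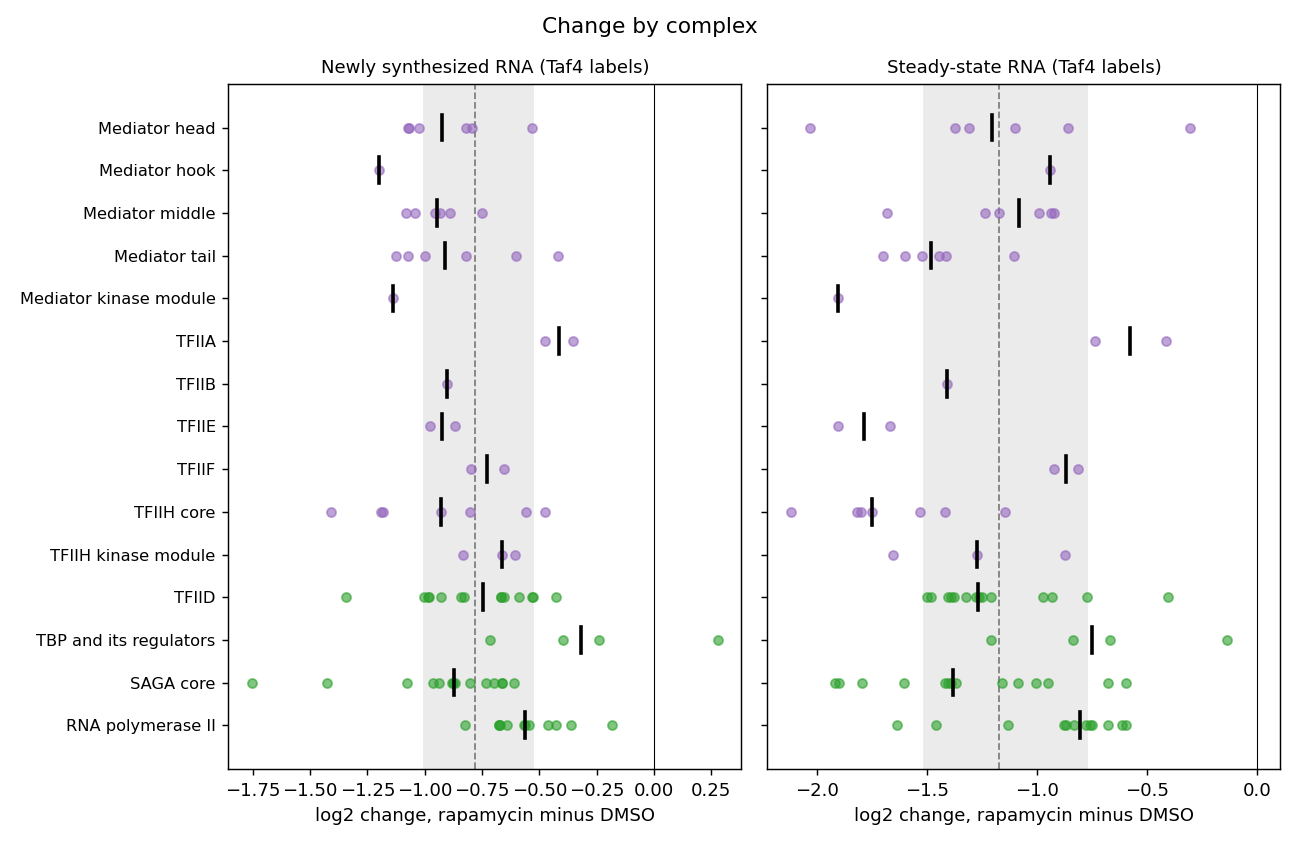
Log2 change (rapamycin minus DMSO) of single genes, as points, by complex in newly synthesized RNA (left) and steady-state RNA (right); purple marks the members, green other factors, and black bars list medians. The dashed line and grey band are the median and the range between quartiles of all 4359 genes; TFIIA and the polymerase subunits have medians right of the dashed line and the TFIIH core left of it in both panels.

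The spike-in carries counterparts of these genes in cells that had no tagged TFIID. Of 26 S. pombe names that match Mediator or general factor subunits, 18 passed the same filter. In newly synthesized RNA 0 fell and 0 rose with rapamycin by limma (0 at an unadjusted p under 0.05, beside 44 of 1391), with a median of 0.03 and a range from -0.39 (tfa1) to 0.18 (tfb1). The S. pombe medians of the arrays were made equal, so changes centred near 0 follow from the scaling and only the spread among S. pombe genes is measured. Of the 18, tfb1 (0.18) and tfb2 (0.06) bear the names of the S. cerevisiae genes that fell 2.65-fold and 2.27-fold, toa1 (-0.10) that of TOA1, and tfa1 (-0.39) that of TFA1, which fell 1.97-fold. In steady-state RNA 2 were lower and 4 higher, 33.3% of the 18 beside 54.2% of all S. pombe names. Higher were srb7 (1.31, adjusted p = 5.72e-05), med11 (0.88, adjusted p = 6.38e-04), med31 (0.70, adjusted p = 0.00312) and med20 (0.60, adjusted p = 0.0127), and lower were tfb1 (-0.62, adjusted p = 0.0046) and tfa2 (-0.59, adjusted p = 0.00363). The S. cerevisiae genes of like name, SRB7, MED11, TFB1 and TFA2, changed by -1.17, -1.31, -1.53 and -1.90 on the same arrays. SRB2 and SOH1, the members that correspond to med20 and med31 under other names, changed by -0.30 and -1.24, and SRB2 did not pass.

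**Figure D5:**
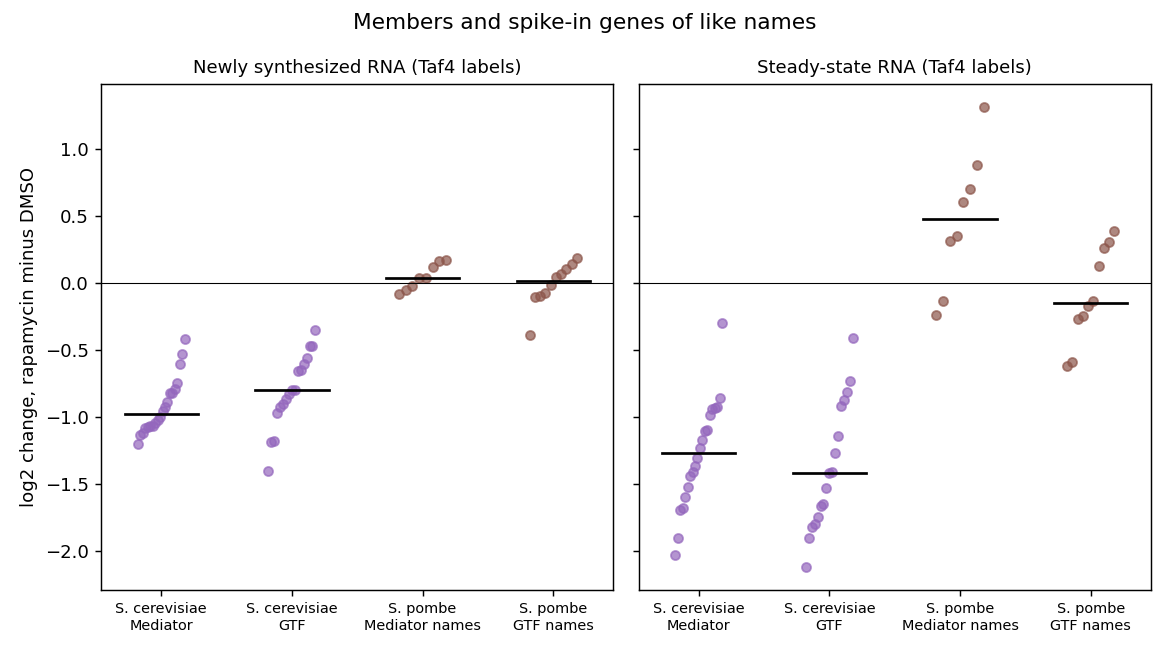
Log2 change (rapamycin minus DMSO) of 20 Mediator and 17 general factor (GTF) genes of S. cerevisiae and of 8 and 10 S. pombe genes with matching names, in newly synthesized RNA (left) and steady-state RNA (right); points are genes and bars medians. The S. pombe genes lie between -0.39 and 0.18 on the left and between -0.62 and 1.31 on the right.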

How the data were processed

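RNA was hybridised to Affymetrix arrays that carry probe sets of both yeasts. The deposited values are linear signal intensities per probe set, made with Affymetrix Expression Console 1.4.1 per the submitters' processing notes; how probes were summarised and background removed is not stated there. Trimmed means near 500 in columns titled Taf4 and near 100 in those titled Taf5 show that each array had been scaled over both yeasts, which removes a general change until the spike-in is used. The log2 of each deposited value was taken, arrays were shifted to equal S. pombe medians, each gene was read from its probe set of highest mean, and the dimmest 20% of genes (mean log2 below 6.7) were left out. Names came from the platform annotation, updated through Entrez IDs to the RefSeq table of assembly R64: of 10928 probe sets 7244 had 1 symbol, 1 several and 3683 none.

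All 4 contrasts were fitted with limma 3.58.1 (lmFit and eBayes, two-sided, R 4.3.3) on the 8 Taf4-labelled arrays, with 4 groups of 2 and 1 spread per gene, and p-values were adjusted by Benjamini-Hochberg over the 4359 genes. S. pombe names were fitted in the same way; they and the use of the Taf5 columns were added after seeing the data. The fit was tested on simulated data. Alternatives were the scaling, the filter, the probe set rule, the variance model, arrays of 1 fraction only, a replicate block and leaving out each array. The members and lists were chosen with earlier results of these data known. Named by rule were, per depletion comparison, the 6 lowest and 6 highest members and the member with the brightest probe set of each role, and for the other contrasts the 4 at each end; other genes with values were chosen after their values were seen. A planned count of promoter elements was not run, because no promoter sequences were used here.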

Additional observations from a re-analysis of the deposited data

How the results depend on the processing

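The calls depend most on how the arrays are put on 1 scale, and the cause of such shifts was not tested. With the values as deposited, 22 members were lower in newly synthesized RNA, with a median of -0.51, beside 2114 of all 4359 genes and a median of -0.40. The members' median was -0.84 in steady-state RNA, against -0.64 over all genes. Without rapamycin, newly synthesized against steady-state RNA had a members' median of -1.09, against -0.84 over all genes. On the deposited values TOA2 was at 0.025 and 0.11 in the 2 depletion comparisons, SRB2 at 0.22 in steady-state RNA, and the difference of changes of MED8 at -0.12. Equal S. cerevisiae medians set changes relative to the median gene: in newly synthesized RNA they gave 2 members lower and 2 higher, with medians of -0.064 over members and 0.046 over all genes, and 16 of 37 members were above 0, among them, of the members named by rule, SSL2 0.26, SRB6 0.29, TFB5 0.35, TOA1 0.35, NUT1 0.41, TOA2 0.47, RGR1 0.0034, TFG1 0.027 and CCL1 0.22. In steady-state RNA that scale gave 10 lower and 7 higher, medians of -0.10 over members and 0.094 over all genes, and 16 of 37 members above 0, among them, of those named by rule, CCL1 0.39, SRB6 0.41, TFG2 0.45, TOA1 0.53, TOA2 0.85, SRB2 0.96, ROX3 0.33, SRB7 0.095, TFG1 0.35 and TFB5 0.12. Without rapamycin it gave 13 lower and 8 higher, medians of -0.14 and 0.10, and 14 of 37 members above 0, among them, of those named by rule and besides SRB2, MED8 0.66, TOA2 0.74 and ROX3 0.82; for the difference of changes the medians were 0.047 over members and -0.055 over all genes, with MED8 at -0.41. A loess curve fitted to the S. pombe signals moved the members' median to -0.76 in newly synthesized RNA, -1.94 without rapamycin and 0.96 for the difference of changes, where 25 members and 2479 of all 4359 genes were called higher (median of all genes 0.86), with ROX3 at 0.31 and MED7 at 0.19. With the brighter S. pombe probe sets alone the median without rapamycin was -1.85, and the difference of changes called 4 members and 265 of all genes higher, with MED7 at 0.058. No filter, a filter on 40% of genes, probe sets averaged per gene, a variance trend with intensity and arrays of 1 fraction were also tried. These gave 28 to 37 members lower in newly synthesized RNA and 28 to 38 in steady-state RNA, with 0 higher. Of all genes, 2580 to 3884 and 2802 to 4497 were lower in the same fits. The lowest counts come from the stricter filter, which tests fewer members. Without a filter CCL1, PGD1, SRB6 and TOA1 lost their calls in newly synthesized RNA. With the newly synthesized arrays alone TFB5, NUT1 and TOA2 passed by limma (adjusted p = 0.0051, 0.0062 and 0.0159). Over the fits that each left out 1 array, newly synthesized RNA gave 24 to 36 members lower and a median of -0.96 to -0.85, steady-state RNA 34 to 36 and -1.60 to -1.10, no rapamycin 34 to 36 and -1.64 to -1.37, and the difference of changes 0 to 12 members higher and a median of 0.23 to 0.74, with MED7 at -0.26 to 0.023 and MED8 at -0.15 to 0.21. Over all genes tested, the fall in newly synthesized RNA was called for 2382 to 3625 genes in these fits. In the same fits the median of all genes was -0.85 to -0.70 in newly synthesized RNA and -1.35 to -1.01 in steady-state RNA. It was -1.43 to -1.12 without rapamycin and 0.22 to 0.56 for the difference of changes. The replicate numbers are not shown to pair the samples: the deviations of same-numbered arrays correlated between -0.019 and 0.17, with only 2 numbers. A fit with the replicate block called 37 members in newly synthesized RNA, 36 in steady-state RNA and 11 for the difference of changes. Beside these, it called 3768 lower, 3908 lower and 1004 higher of all genes. With 2 arrays per group and no detection calls used, their number and the dim signals of the lowest members limit the precision.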

Other observations

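Of the columns titled Taf5, 2 equal no Taf4 column, and each is the single such array of its group, so their values have no replicate and no test. On a scale with the S. pombe medians of all columns equal, the 41 members with a probe set had a median log2 signal of 6.54 on newly synthesized replicate 2 with rapamycin and 7.27 on steady-state replicate 2 with DMSO, where all S. cerevisiae probe sets had 6.66 and 7.29. On the Taf4 arrays the members' medians were 6.08 and 6.08 in newly synthesized RNA with rapamycin, against 6.98 and 7.14 with DMSO. All S. cerevisiae probe sets had 6.07 and 6.09 there, against 6.83 and 6.98. In steady-state RNA the members' medians were 6.93 and 7.52 with rapamycin, against 8.50 and 8.93 with DMSO. All S. cerevisiae probe sets had 6.83 and 7.20 there, against 8.12 and 8.45. Each of the 2 Taf5 arrays lies outside the values of the Taf4 arrays with its treatment and fraction label. The array labelled steady-state with DMSO (7.27) lies nearer to the Taf4 newly synthesized arrays with DMSO (6.98 and 7.14). The array labelled newly synthesized with rapamycin (6.54) lies between the Taf4 arrays of the 2 fractions. Over all S. cerevisiae probe sets the 2 Taf5 arrays lie in the same places. The 6 copied columns differ from their Taf4 columns in fraction label, so differences of strain and of fraction label cannot be told apart here.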
